A study of Mus musculus with 4 samples.

Results

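The antioxidant and NRF2 target genes described here are *Nfe2l2*, *Sod1*, *Sod2*, *Cat*, *Gpx1*, *Prdx1*, *Prdx5*, *Txnrd1*, *Srxn1* and *Gclm*. They were taken by gene symbol, and all 10 were found among the 25655 genes measured in the RNA-Seq of cardiac neutrophils. NRF2, encoded by *Nfe2l2*, is a transcription factor that KEAP1 marks for degradation in resting cells. When oxidants modify KEAP1, NRF2 accumulates, pairs with small MAF proteins and binds antioxidant response elements (AREs) near genes for glutathione synthesis, thioredoxin recycling and NADPH supply. Neutrophils produce superoxide with their NADPH oxidase, and superoxide dismutases, catalase, glutathione peroxidases and peroxiredoxins remove superoxide and the peroxides made from it.

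The study examined whether the inhibitory receptor CD300a on phagocytes affects injury after myocardial infarction and reperfusion (MI/R), in which the left anterior descending artery was occluded for 1 hour and then opened. Neutrophils (CD45.2+CD11b+Ly6G+) were sorted from the hearts on day 3 after MI/R into SiglecF hi and SiglecF lo cells, which the sample labels call SiglecF+ and SiglecF-. The mice were male, 8 to 12 weeks of age and on a C57BL/6 background, and were either wild-type (WT) or deficient in CD300a in all cells (*Cd300a-/-*). Each of the 4 groups (WT SiglecF hi, *Cd300a-/-* SiglecF hi, WT SiglecF lo and *Cd300a-/-* SiglecF lo) was 1 library from the pooled cells of 8 mice (at least 20000 cells). With 1 library per group, no difference had a replicate check and no P value was calculated.

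Levels are given as TPM, a share of all transcripts that is normalized for gene length and depth. The depth of the SiglecF hi libraries was 19278243 counts (WT) and 17632989 counts (*Cd300a-/-*), and that of the SiglecF lo libraries was 9631901 counts (WT) and 10988619 counts (*Cd300a-/-*). Differences are log2((TPM + 1) ratio), a scale that makes changes of low genes look smaller, with a 95% counting interval from the Poisson error of both counts. The intervals cover counting error alone, since reads lacking molecular identifiers need not come from separate molecules. Genes with a mean TPM over 10 in the 4 libraries were compared, which kept 6523 genes and all 10 antioxidant genes. A gene was called higher or lower when its ratio passed 0.5 in that direction. The median ratio of SiglecF hi to SiglecF lo neutrophils was 0.53 in WT and 0.61 in *Cd300a-/-*. Ratios between the subsets are therefore given relative to this median. Between genotypes the medians were 0.04 (SiglecF hi) and -0.02 (SiglecF lo), and these ratios are not centred.

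*Cd300a* was at 162.9 TPM in WT against 0.74 TPM in *Cd300a-/-* for SiglecF hi neutrophils, and it was at 127 TPM against 1.06 TPM for SiglecF lo neutrophils. *Siglecf* was at 354 and 405 TPM in WT and *Cd300a-/-* SiglecF hi, and at 11.3 and 15.3 TPM in SiglecF lo neutrophils. Both genes followed the labels of the libraries. *Ly6g*, the gene of the marker used for sorting, was at 11.1 TPM in WT SiglecF hi, 41.9 TPM in *Cd300a-/-* SiglecF hi, 330 TPM in WT SiglecF lo and 889 TPM in *Cd300a-/-* SiglecF lo neutrophils. Its RNA was thus lowest in the SiglecF hi cells, although all 4 groups were sorted as Ly6G+.

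Marker lists of other cell types also differed between the libraries. The summed level of 8 neutrophil genes was 27824 TPM in WT SiglecF hi, 32109 TPM in *Cd300a-/-* SiglecF hi, 143206 TPM in WT SiglecF lo and 179907 TPM in *Cd300a-/-* SiglecF lo neutrophils, with *S100a9* the most abundant. In the same order, 9 macrophage genes summed to 7378, 6600, 2949 and 2733 TPM. *C1qb* was highest of this list on average, at 2257, 2036, 839 and 754 TPM, and no gene of it was at 0 in any library. Macrophage genes were thus more abundant in SiglecF hi neutrophils, and 7 of the 9 in WT (against 19.3% of all genes) and 5 of the 9 in *Cd300a-/-* (against 21.2%) were higher there past the limit after centring. In bulk libraries, a smaller share of cells of a type and less RNA per cell cannot be told apart.

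The other lists were lower in level. In the order WT and *Cd300a-/-* SiglecF hi, then WT and *Cd300a-/-* SiglecF lo, 5 fibroblast genes summed to 1691, 1195, 772 and 790 TPM, led by *Dcn*. The 5 endothelial genes, led by *Fabp4*, summed to 317, 429, 515 and 156 TPM, and the 5 erythroid genes, led by *Hba-a2*, to 893, 999.7, 1417 and 780 TPM. Both lists were lowest in *Cd300a-/-* SiglecF lo neutrophils. The 3 monocyte genes, led by *Ly6c2*, summed to 562, 476, 945 and 874 TPM. The 7 cardiomyocyte genes, with *Mb* highest on average, summed to 58.5, 93.9, 48.9 and 26.3 TPM, and 4 lymphocyte genes, with *Cd79a* highest on average but at 0 in WT SiglecF lo, to no more than 7.34 TPM. The 7 eosinophil genes summed to 117, 119, 173 and 87.9 TPM, nearly all of it from *Ear2*, while the defining gene *Epx* had 0 counts in every library, which allows up to 3 counts.

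The 10 antioxidant genes differed little between genotypes in SiglecF hi neutrophils and more in SiglecF lo neutrophils. None of the 10 was past the limit in *Cd300a-/-* against WT SiglecF hi neutrophils, where 3.31% of all genes compared were higher and 3.46% lower. In SiglecF lo neutrophils *Gclm*, *Srxn1* and *Cat* were higher in *Cd300a-/-* (3 of 10, against 16.4% of all genes), and *Prdx1* and *Sod1* were lower (2 of 10, against 19.9%). Between the subsets in WT, *Cat* and *Prdx1* were higher in SiglecF hi (2 of 10, against 19.3%) and *Prdx5* was lower (1 of 10, against 20.9%). In *Cd300a-/-*, *Prdx1* and *Sod1* were higher in SiglecF hi (2 of 10, against 21.2%), and *Prdx5*, *Gclm* and *Srxn1* were lower (3 of 10, against 23.6%). With 10 genes, 1 gene is 10% of the list, and these counts lay near the shares of all genes. The median ratio of the 10 genes was 0.07 and -0.02 between genotypes in SiglecF hi and SiglecF lo neutrophils, and -0.22 and -0.08 between subsets in WT and *Cd300a-/-*.

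**Figure D1:**
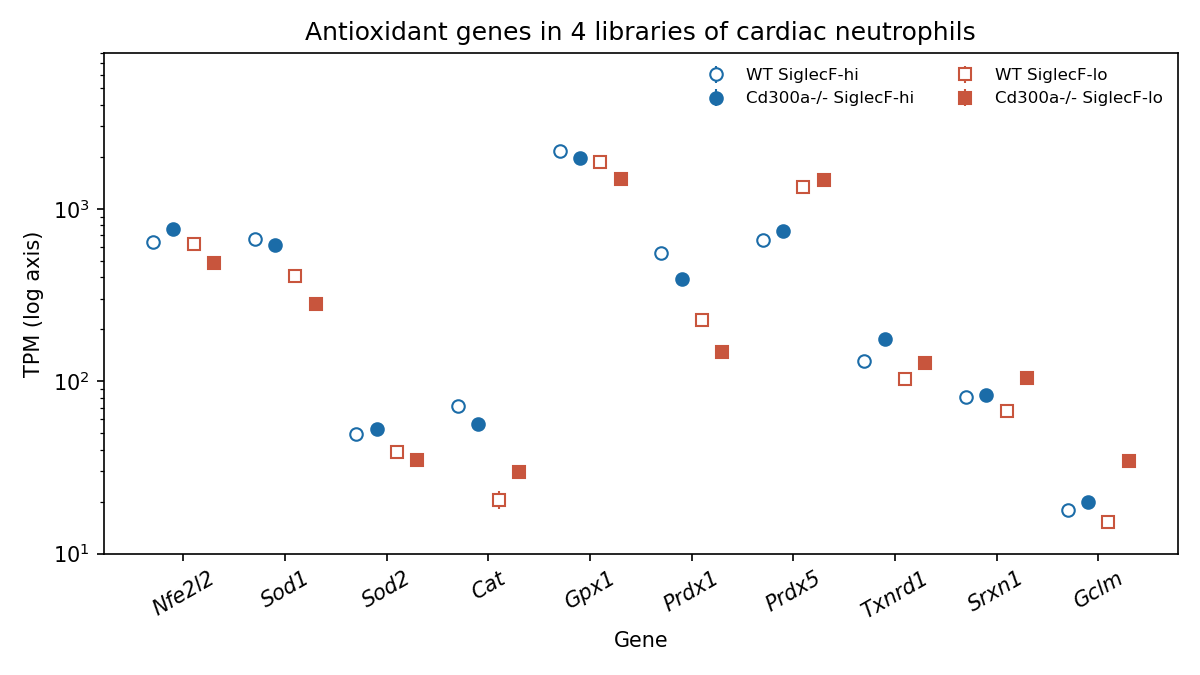
TPM of the 10 antioxidant genes (log axis) in the 4 libraries. Circles are SiglecF hi and squares SiglecF lo neutrophils, open symbols are WT and filled symbols *Cd300a-/-*, each point is 1 library and bars are 95% counting intervals. *Gpx1* is the most abundant gene in each library, from 1494 to 2155 TPM, and *Gclm* is highest in *Cd300a-/-* SiglecF lo neutrophils, at 34.4 TPM.

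*Nfe2l2* (ENSMUSG00000015839, chr2:75505857-75534985, minus strand) encodes NRF2 itself. Positions are those of the files, for which the submitters' processing notes name GRCm39. *Nfe2l2* was at 642 TPM (13945 counts) in WT against 762 TPM (14820 counts) in *Cd300a-/-* for SiglecF hi neutrophils, and it was at 626 TPM (7966 counts) against 484 TPM (6784 counts) for SiglecF lo neutrophils. It was thus highest in *Cd300a-/-* SiglecF hi and lowest in *Cd300a-/-* SiglecF lo neutrophils, and the intervals of the WT libraries, 631 to 653 TPM and 613 to 640 TPM, overlapped. The genotype ratio, *Cd300a-/-* to WT, was 0.25 (95% counting interval from 0.21 to 0.28) in the SiglecF hi subset and -0.37 (-0.42 to -0.33) in the SiglecF lo subset, of opposite sign and within the limit in both. Between the subsets the centred ratio was -0.49 in WT, just inside the limit and past it with a pseudocount of 0.1 TPM (-0.51), with TMM scaling (-0.505) and with DESeq2 size factors (-0.57). It was 0.04 in *Cd300a-/-*. Without centring these ratios were 0.04 and 0.66. NRF2 is regulated mainly as a protein, and protein was not measured here.

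Of 9 further regulators, none was past the limit between genotypes in SiglecF hi neutrophils (against 3.31% of all genes higher and 3.46% lower). There 8 of the 9 were above 0 in TPM and 7 after centring (against 56.4% and 50% of all genes). For SiglecF lo neutrophils 1 was higher (against 16.4%) and none was lower (against 19.9%). This was *Bach1*, which encodes a repressor that competes with NRF2 for AREs. *Bach1* was at 62.6 TPM in WT against 98.5 TPM in *Cd300a-/-* SiglecF lo neutrophils (ratio 0.65, 0.56 to 0.73), with a ratio of 0.11 in SiglecF hi neutrophils. Between the subsets in *Cd300a-/-* its centred ratio was -0.88, and it was -0.27 without centring. *Keap1*, the NRF2 inhibitor, had ratios of 0.20 and -0.14, and *Cul3*, its ubiquitin ligase scaffold, 0.17 and 0.30. *Sqstm1*, whose product binds KEAP1, was the most abundant of the regulators, with a mean of 638 TPM and ratios of 0.15 and 0.13. Between the subsets, the small MAF gene *Maff* was higher in SiglecF hi in both genotypes, at 173 against 83.9 TPM in WT and 222 against 102 TPM in *Cd300a-/-*. Its centred ratios of 0.51 and 0.50 were just past the limit and fell inside it with DESeq2 size factors, at 0.43 and 0.45, and in WT also with TMM scaling (0.496). The genotype ratios of *Maff* were 0.36 and 0.28. *Mafk* was lower relative to all genes, at -0.66 in both genotypes, but at -0.13 and -0.05 without centring, and its TPM was nearly equal in the subsets (66.1 and 60.2 TPM in WT SiglecF lo and SiglecF hi).

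*Sod1* (ENSMUSG00000022982, chr16:90017642-90023217, plus strand) encodes the cytosolic copper and zinc superoxide dismutase. It was at 668 TPM in WT against 614 TPM in *Cd300a-/-* for SiglecF hi neutrophils, and it was at 409 TPM in WT against 279 TPM in *Cd300a-/-* SiglecF lo neutrophils, with 3759, 3093, 1346 and 1013 counts. *Cd300a-/-* SiglecF lo neutrophils had the lowest level, and no counting intervals overlapped. Between genotypes, its ratio was -0.12 (-0.19 to -0.05) in the SiglecF hi subset and -0.55 (-0.67 to -0.43) in the SiglecF lo subset, where the call was lost with DESeq2 size factors (-0.49). Between the subsets the centred ratio was 0.18 in WT, and 0.71 without centring, past the limit. In *Cd300a-/-* it was 0.52 (0.42 to 0.63), and 1.14 without centring. The call in *Cd300a-/-* was also lost with DESeq2 size factors (0.47) and when the median was taken over genes with a mean TPM over 1 (0.498). The last 650 bases of *Sod1* overlap *Scaf4* on the opposite strand, which had 161 to 539 counts, and whether the counting used strand is not given in the sources used here.

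*Sod2* (ENSMUSG00000006818, chr17:13225733-13258950, plus strand) encodes the mitochondrial manganese enzyme. It was at 49.6 TPM in WT against 52.8 TPM in *Cd300a-/-* for SiglecF hi neutrophils, and it was at 39.0 against 34.7 TPM for SiglecF lo neutrophils. These levels spanned 1.52-fold, and the intervals of the SiglecF hi libraries overlapped. Its genotype ratio was 0.09 (0.03 to 0.15) in the SiglecF hi subset and -0.16 (-0.25 to -0.08) in the SiglecF lo subset, within the limit in both. The centred ratio between subsets was -0.19 in WT and -0.02 in *Cd300a-/-*, and without centring these were 0.34 and 0.59, the latter past the limit. *Sod1* held 90.5% of the summed TPM of *Sod1*, *Sod2* and *Sod3* in WT SiglecF hi (95% counting interval 90.1 to 90.8%) and 85.1% (84.2 to 86.1%) in *Cd300a-/-* SiglecF lo neutrophils. *Sod3*, the extracellular enzyme, was at 20.9 TPM in WT against 11.7 TPM in *Cd300a-/-* SiglecF hi neutrophils (ratio -0.79, -0.96 to -0.61), and at 15.6 and 13.9 TPM in SiglecF lo neutrophils.

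*Cat* (ENSMUSG00000027187, chr2:103284194-103315505, minus strand) encodes catalase, the peroxisomal enzyme that splits hydrogen peroxide. It was at 71.8 TPM (1647 counts) in WT against 56.1 TPM (1152 counts) in *Cd300a-/-* for SiglecF hi neutrophils, and it was at 20.5 TPM (275 counts) against 29.7 TPM (440 counts) for SiglecF lo neutrophils. Both SiglecF hi libraries lay above both SiglecF lo libraries, and WT was above *Cd300a-/-* in SiglecF hi but below it in SiglecF lo neutrophils. The genotype ratio of *Cat* was -0.35 (-0.46 to -0.24) in the SiglecF hi subset and 0.52 (0.31 to 0.72) in the SiglecF lo subset. Between the subsets the centred ratio was 1.23 (1.06 to 1.41) in WT and 0.28 (0.13 to 0.44) in *Cd300a-/-*. Without centring these were 1.76 and 0.90, both past the limit.

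*Gpx1* (ENSMUSG00000063856, chr9:108216102-108217542, plus strand) encodes the main cytosolic glutathione peroxidase and was the most abundant of the 10 genes. It was at 2155 TPM in WT against 1963 TPM in *Cd300a-/-* for SiglecF hi neutrophils, and it was at 1874 against 1494 TPM for SiglecF lo neutrophils, with 9079 to 20273 counts. *Gpx1* was thus among the 80 most abundant genes of every library (rank 55 to 80). In TPM, without centring between the subsets, it varied least of the 10 genes, 1.44-fold. Between genotypes, its ratio was -0.13 (-0.16 to -0.10) in the SiglecF hi subset and -0.33 (-0.37 to -0.29) in the SiglecF lo subset. Its share of the TPM of *Gpx1*, *Gpx3*, *Gpx4*, *Gpx7* and *Gpx8* lay between 78.3% and 80.7% in the 4 libraries. Of the smaller family members, *Gpx7*, an enzyme of the endoplasmic reticulum, was at 22.9 TPM in WT against 8.89 TPM in *Cd300a-/-* SiglecF hi neutrophils (ratio -1.27, -1.59 to -0.96). It was at 8.91 and 7.94 TPM in WT and *Cd300a-/-* SiglecF lo neutrophils, and so passed the mean TPM limit only through WT SiglecF hi. *Gpx3*, the secreted enzyme, was at 119 TPM in WT against 77.0 TPM in *Cd300a-/-* SiglecF lo neutrophils (ratio -0.62, -0.75 to -0.49).

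*Prdx1* (ENSMUSG00000028691, chr4:116542741-116558019, plus strand) encodes a cytosolic peroxiredoxin that thioredoxin reduces, and is a known NRF2 target. It was at 552 TPM (12936 counts) in WT against 391 TPM (8197 counts) in *Cd300a-/-* for SiglecF hi neutrophils, and it was at 228 TPM (3123 counts) against 148 TPM (2246 counts) for SiglecF lo neutrophils. In TPM, without centring between the subsets, *Prdx1* spanned 3.72-fold, the widest range of the 10 genes. After centring, *Prdx5* differed more between the subsets than *Prdx1* did, at -1.56 in WT and -1.59 in *Cd300a-/-*. *Prdx1* was lower in *Cd300a-/-* than in WT in both subsets. Its genotype ratio was -0.50 (-0.54 to -0.46) in SiglecF hi neutrophils. This value is -0.497 before rounding, just inside the limit, and lay past it after centring (-0.54) and with TMM scaling (-0.51) or DESeq2 size factors (-0.502). In SiglecF lo neutrophils the ratio was -0.61 (-0.69 to -0.54). The centred ratio between subsets was 0.75 (0.69 to 0.80) in WT and 0.78 (0.71 to 0.84) in *Cd300a-/-*. *Prdx1*, *Sod1* and *Gpx1* had the same order of libraries as the summed macrophage markers. Whether these markers come from other cells or from RNA of the neutrophils cannot be told apart, and their part in the levels of these genes was not tested.

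*Prdx5* (ENSMUSG00000024953, chr19:6884065-6887474, minus strand) encodes a peroxiredoxin found in mitochondria, peroxisomes and cytosol. It was at 658 TPM in WT against 743 TPM in *Cd300a-/-* for SiglecF hi neutrophils, and it was at 1346 against 1463 TPM for SiglecF lo neutrophils, with 8360 to 11997 counts. Both SiglecF lo libraries were above both SiglecF hi libraries, the reverse of *Prdx1*. The centred ratio of SiglecF hi to SiglecF lo was -1.56 (-1.60 to -1.51) in WT and -1.59 (-1.63 to -1.55) in *Cd300a-/-*, and without centring it was -1.03 and -0.98. The genotype ratios were 0.17 (0.13 to 0.22) and 0.12 (0.08 to 0.16). The summed neutrophil markers had the same order of libraries as *Prdx5*, and their part in it was not tested. *Prdx5* shares 409 bases with *Trmt112* on the opposite strand, which had 420 to 1360 counts.

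The makeup of the peroxiredoxin family therefore differed between the subsets. Without centring, *Prdx1* to *Prdx6* summed to 1692 TPM (WT) and 1569 TPM (*Cd300a-/-*) for SiglecF hi neutrophils. The SiglecF lo libraries had higher sums, 1959.5 TPM (WT) and 1920 TPM (*Cd300a-/-*). Centring subtracts 0.53 (WT) and 0.61 (*Cd300a-/-*), which places the family lower still in SiglecF hi. *Prdx5* held 38.9% (38.3 to 39.5%) of the family sum in SiglecF hi neutrophils of WT mice and 47.4% (46.7 to 48.0%) in those of *Cd300a-/-* mice. In SiglecF lo neutrophils it held 68.7% (68.0 to 69.3%) in WT and 76.2% (75.6 to 76.8%) in *Cd300a-/-*. The share of *Prdx1* went the other way, from 32.6% (WT) and 24.9% (*Cd300a-/-*) in SiglecF hi to 11.6% in WT and 7.73% in *Cd300a-/-* SiglecF lo neutrophils. These shares do not depend on the scaling between libraries. *Prdx2*, *Prdx3*, *Prdx4* and *Prdx6* had negative genotype ratios in SiglecF lo neutrophils, as 51.2% of all genes had. They ran from -0.55 for the mitochondrial *Prdx3* to -0.20 for *Prdx6*. In SiglecF hi neutrophils (43.6% of all genes below 0) *Prdx2*, *Prdx3* and *Prdx4* were at -0.29, -0.37 and -0.49, and *Prdx6* was positive at 0.06.

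*Txnrd1* (ENSMUSG00000020250, chr10:82669785-82733546, plus strand) encodes the cytosolic reductase that keeps thioredoxin reduced with NADPH. It was at 132 TPM in WT against 177 TPM in *Cd300a-/-* for SiglecF hi neutrophils, and it was at 102 against 127 TPM for SiglecF lo neutrophils, with 2143 to 5652 counts. *Txnrd1* was higher in *Cd300a-/-* in both subsets but within the limit, and the intervals of WT SiglecF hi and *Cd300a-/-* SiglecF lo neutrophils overlapped. The genotype ratio of *Txnrd1* was 0.42 (0.37 to 0.48) in the SiglecF hi subset and 0.31 (0.23 to 0.39) in the SiglecF lo subset. The ratio in SiglecF hi neutrophils was above that of 94.4% of all genes compared. *Eid3*, on the same strand inside *Txnrd1*, had 26 to 87 counts. *Txn1*, the substrate of this enzyme, was at 1946 TPM in WT against 1369.7 TPM in *Cd300a-/-* SiglecF lo neutrophils (ratio -0.51), a call lost under centring (-0.49), TMM scaling (-0.48) and DESeq2 size factors (-0.45).

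*Srxn1* (ENSMUSG00000032802, chr2:151947436-151953296, plus strand) encodes sulfiredoxin, which repairs overoxidized peroxiredoxins and is a known NRF2 target. It was at 80.9 TPM (1997 counts) in WT against 83.6 TPM (1847 counts) in *Cd300a-/-* for SiglecF hi neutrophils, and it was at 66.8 TPM (965 counts) against 104 TPM (1660 counts) for SiglecF lo neutrophils. *Cd300a-/-* SiglecF lo neutrophils had the highest level, and the SiglecF hi libraries did not differ beyond counting error. Between genotypes, its ratio was 0.05 (-0.04 to 0.14) in the SiglecF hi subset and 0.63 (0.52 to 0.75) in the SiglecF lo subset. In *Cd300a-/-* the centred ratio between subsets was -0.93 (-1.02 to -0.83), and it was -0.31 without centring, within the limit.

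*Gclm* (ENSMUSG00000028124, chr3:122039206-122064381, plus strand) encodes the modifier subunit of glutamate-cysteine ligase, the enzyme of the rate-limiting step of glutathione synthesis. It was at 18.0 TPM (933 counts) in WT against 19.9 TPM (925 counts) in *Cd300a-/-* for SiglecF hi neutrophils, and it was at 15.3 TPM (465 counts) against 34.4 TPM (1153 counts) for SiglecF lo neutrophils. *Cd300a-/-* SiglecF lo neutrophils stood above the other 3 libraries, in which *Gclm* was the least abundant of the 10 genes. Only there was another of the 10 lower, *Cat* at 29.7 TPM, with *Sod2* close to *Gclm* at 34.7 TPM. Its genotype ratio was 0.14 (0.02 to 0.26) in the SiglecF hi subset and 1.12 (0.97 to 1.27) in the SiglecF lo subset, above that of 97.7% of all genes. The centred ratio between subsets was -0.31 (-0.46 to -0.16) in WT and -1.37 (-1.49 to -1.25) in *Cd300a-/-*. Without centring these were 0.22 and -0.76, so the direction in WT depends on centring. The ratio in *Cd300a-/-* shares the *Cd300a-/-* SiglecF lo library with the genotype ratio.

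**Figure D2:**
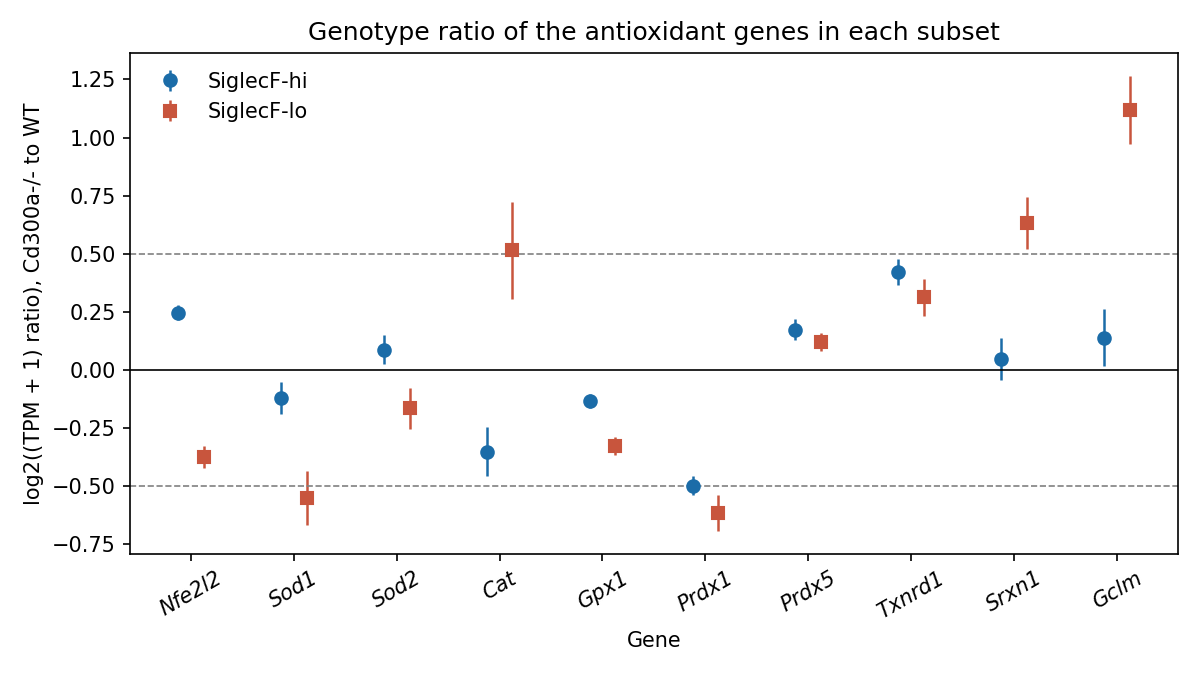
Log2((TPM + 1) ratio) of *Cd300a-/-* to WT for the 10 antioxidant genes in SiglecF hi (circles) and SiglecF lo (squares) neutrophils, 1 library per group. Bars are 95% counting intervals and dashed lines mark the limit of 0.5 in each direction. *Gclm* is highest at 1.12 in SiglecF lo neutrophils, and *Prdx1* is lowest in both subsets.

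Of 13 further glutathione genes, 4 were higher in *Cd300a-/-* SiglecF lo neutrophils (against 16.4% of all genes), 4 were lower (against 19.9%) and 5 were within the limit. The 4 higher genes include *Mgst2*, which passed the mean TPM limit only through this library. *Gclc*, the catalytic subunit of glutamate-cysteine ligase, was at 14.2 TPM in WT against 22.3 TPM in *Cd300a-/-* for SiglecF hi neutrophils, and it was at 8.07 against 15.5 TPM for SiglecF lo neutrophils. Its ratios were 0.62 (0.45 to 0.79) and 0.86 (0.60 to 1.12), and it was the only gene of the 61 antioxidant genes compared that was higher past the limit in both subsets, as 1.24% of all genes were. *Slc7a11*, the cystine transporter, was at 86.4 TPM in WT against 143 TPM in *Cd300a-/-* SiglecF lo neutrophils (ratio 0.72, 0.67 to 0.77), with a ratio of 0.12 in SiglecF hi neutrophils. *Chac1*, which degrades glutathione, had 79 counts in WT and 162 counts in *Cd300a-/-* SiglecF lo neutrophils (ratio 0.83, 0.47 to 1.18). *Gsr*, which recycles glutathione and was the most abundant gene of this group, had ratios of 0.39 (SiglecF hi) and 0.46 (SiglecF lo), within the limit but past it in SiglecF lo with DESeq2 size factors (0.51). Within it was also *Slc3a2*, the partner chain of *Slc7a11*, with 0.28 and 0.18. *Slc7a11* and *Chac1* were singled out after their values were seen. From WT to *Cd300a-/-* SiglecF lo neutrophils, the summed neutrophil markers went from 143206 to 179907 TPM, with 3 of 8 higher past the limit. Endothelial markers went from 515 to 156 TPM, with 3 of the 4 compared lower. The part of these markers in the glutathione genes was not tested.

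The 7 glutathione S-transferases compared were among the 13 glutathione genes above. In SiglecF hi neutrophils 6 of the 7 had a ratio of *Cd300a-/-* to WT below 0 (against 43.6% of all genes). There 2 were lower and none higher past the limit (against 3.46% and 3.31% of all genes). For SiglecF lo neutrophils 5 of the 7 were below 0 (against 51.2%), and 4 were lower and 1 higher past the limit (against 19.9% and 16.4%). The 4 lower genes are the same 4 as among the 13. These counts include the genes below 0 and those past the limit. All were equal after centring, with TMM scaling and with DESeq2 size factors. *Mgst2* had 49 counts (9.26 TPM) in WT and 7 counts (1.48 TPM) in *Cd300a-/-* SiglecF hi neutrophils, but 34 counts (11.0 TPM) and 185 counts (54.1 TPM) in SiglecF lo neutrophils. Its ratios were -2.05 (-2.78 to -1.32) and 2.20 (1.71 to 2.69), and its centred ratios of SiglecF hi to SiglecF lo were -0.75 in WT and -5.09 in *Cd300a-/-*. *Gstk1* was lower in *Cd300a-/-* in both subsets, at -0.55 (-0.91 to -0.19) and -1.73 (-2.35 to -1.11), on 16 to 143 counts. It was at 16.2 against 10.7 TPM in SiglecF hi and 11.6 against 2.80 TPM in SiglecF lo neutrophils. *Gstk1* thus passed the mean TPM limit narrowly, through the WT libraries from which its falls were counted. *Gsto1* was at 55.0 TPM in WT against 21.3 TPM in *Cd300a-/-* SiglecF lo neutrophils, with centred ratios of SiglecF hi to SiglecF lo of 0.82 in WT and 1.98 in *Cd300a-/-*. *Mgst1*, a membrane-bound transferase, was lower in SiglecF hi in both genotypes, at -1.76 and -2.17. *Gstm1* and *Gstp1* belong to families with near-identical copies, and their values are uncertain. *Mgst3* was at -0.62 and *Gstp1* at -0.59 between genotypes in SiglecF lo neutrophils.

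Beside the 10 genes, 60 further genes of the NRF2 and antioxidant systems were considered in 7 groups, and 51 of them passed the TPM limit. Between genotypes in the SiglecF hi subset, 2 of these 51 were higher (against 3.31% of all genes) and 5 lower (against 3.46%) in *Cd300a-/-*, with a median ratio of -0.04. *Msrb2*, the second of the 2 higher genes, lay just past the limit at 0.5006 and was inside it in each other scaling, which left 1 higher and 5 lower (6 lower after centring). With a TPM over 10 in both libraries compared, 49 of the 60 genes were kept, and 2 were higher and 3 lower (2.55% and 2.86% of all genes). In SiglecF lo neutrophils 9 were higher (against 16.4%) and 13 lower (against 19.9%), with a median of -0.14, and 10 were higher and 9 lower with DESeq2 size factors (19.7% and 17.9% of all genes). There a TPM over 10 in both libraries compared kept 43 genes, of which 7 were higher and 9 lower (13.5% and 16.4% of all genes). The 10 further genes of superoxide and peroxide removal had ratios below 0 in SiglecF lo neutrophils in TPM, after centring, with TMM scaling and with DESeq2 size factors, 4 of them past the limit in TPM and 1 with DESeq2 size factors. In SiglecF hi neutrophils 9 of the 10 were below 0 in the same settings, 3 of them past the limit in TPM and 4 after centring, with a median of -0.39. The genes of this function described one by one above were mixed. *Cat* and *Prdx5* had positive ratios in SiglecF lo (0.52 and 0.12), and *Sod1*, *Sod2*, *Gpx1* and *Prdx1* negative ones. In SiglecF hi *Sod2* and *Prdx5* were positive (0.09 and 0.17), and *Sod1*, *Cat*, *Gpx1* and *Prdx1* negative. The share of all genes with a ratio below 0 in TPM was 51.2% (SiglecF lo) and 43.6% (SiglecF hi). Past the limit in TPM in SiglecF hi neutrophils were *Sod3*, *Gpx7* and *Gpx8*. Of these, *Gpx7* reached a mean TPM over 10 only through WT SiglecF hi, the library from which its fall was counted. In the same comparison the summed fibroblast markers were at 1691 TPM in WT against 1195 TPM in *Cd300a-/-*, with 2 of the 4 compared lower past the limit (against 3.46% of all genes). Between genotypes in SiglecF lo neutrophils, endothelial markers went from 515 to 156 TPM, with 3 of the 4 compared lower (against 19.9%), and erythroid markers from 1417 to 780 TPM, with 2 of the 4 lower and 1 higher. The part of these markers in the ratios was not tested. *Gpx8* was lower past the limit in both subsets, at -0.57 and -0.52, the latter lost with TMM scaling (-0.48) and DESeq2 size factors (-0.47).

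Of 5 genes that supply NADPH, 2 were higher and none was lower in *Cd300a-/-* SiglecF lo neutrophils (against 16.4% and 19.9% of all genes). *G6pdx*, which opens the pentose phosphate pathway, was at 182 TPM in WT against 379.5 TPM in *Cd300a-/-* SiglecF lo neutrophils (ratio 1.06, 0.99 to 1.12), and at 105 and 118 TPM in SiglecF hi neutrophils. *Tkt*, a transketolase of the same pathway, was at 204 and 396 TPM in SiglecF lo neutrophils (ratio 0.95, 0.90 to 1.01) and at 178 and 173 TPM in SiglecF hi neutrophils. *G6pdx*, *Pgd*, *Taldo1* and *Tkt* were lower in SiglecF hi than in SiglecF lo neutrophils past the limit after centring (4 of 5, against 20.9% of all genes in WT and 23.6% in *Cd300a-/-*), while *Idh1* was higher in WT (0.64, 0.49 to 0.79) and within the limit in *Cd300a-/-* (0.40, and 1.02 without centring). For the lower genes the ratios in WT ran from -1.76 for *Taldo1* to -0.73 for *Tkt*, and in *Cd300a-/-* from -2.28 for *G6pdx* to -1.47 for *Pgd*. Without centring, *Tkt* in WT was within the limit (-0.20). *Taldo1* was the most abundant gene of this group, with a mean of 1151 TPM. The summed neutrophil markers were likewise lower in SiglecF hi, at 27824 and 32109 TPM against 143206 and 179907 TPM in WT and *Cd300a-/-*, and their part in these ratios was not tested.

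**Figure D3:**
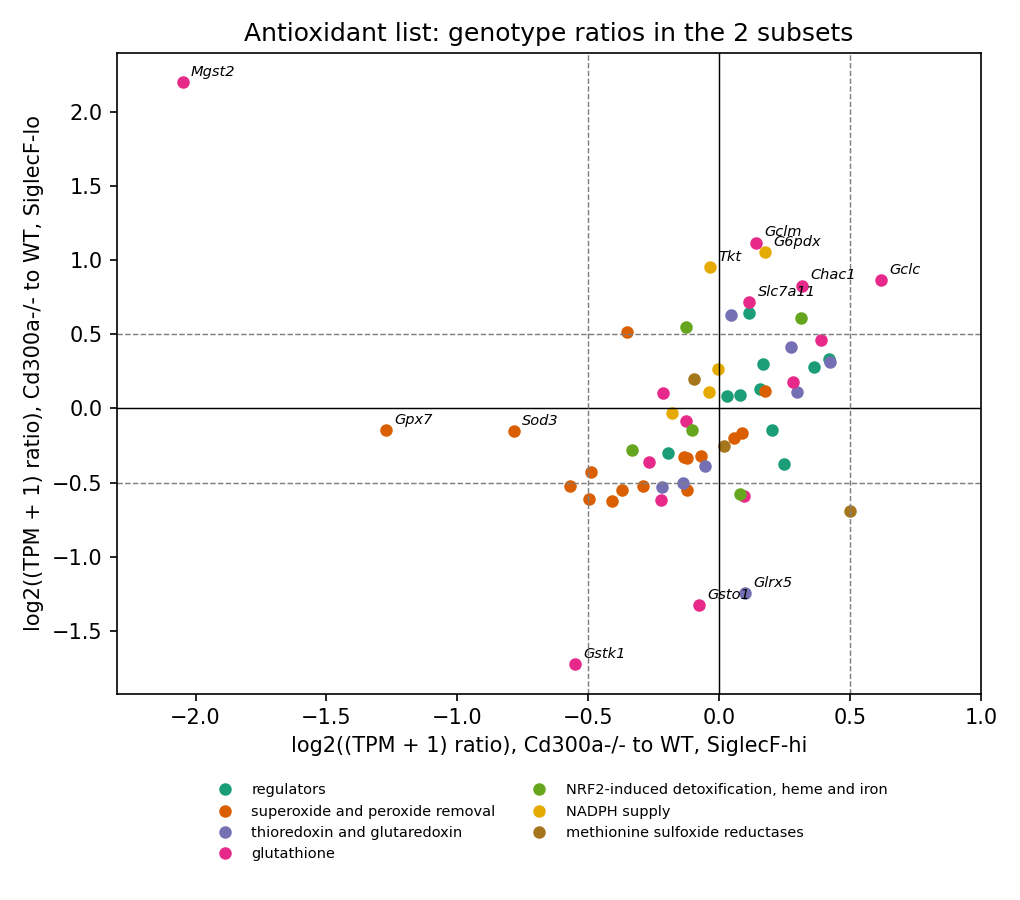
Log2((TPM + 1) ratio) of *Cd300a-/-* to WT in SiglecF hi (horizontal axis) and SiglecF lo (vertical axis) neutrophils for the 61 antioxidant genes with a mean TPM over 10. Each point is 1 gene, colours are the 7 groups of genes and dashed lines mark the limit of 0.5. *Mgst2* lies apart at -2.05 and 2.20, and passed the mean TPM limit only through *Cd300a-/-* SiglecF lo neutrophils. *Gclm*, *G6pdx* and *Tkt* lie near 0 on the horizontal axis and at 0.95 to 1.12 on the vertical axis.

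Of the heme, iron and detoxification genes induced by NRF2, 2 of 5 were higher and 1 lower in *Cd300a-/-* SiglecF lo neutrophils (against 16.4% and 19.9% of all genes). *Hmox1*, heme oxygenase, was at 521 TPM in WT against 762 TPM in *Cd300a-/-* (ratio 0.55, 0.49 to 0.60), and *Osgin1* at 182 and 278 TPM (0.61, 0.54 to 0.69). *Blvrb*, biliverdin reductase B, was at 46.9 and 31.2 TPM (-0.57, -0.80 to -0.35), and between the subsets in *Cd300a-/-* its centred ratio was 0.83. The centred ratios of *Osgin1* were -1.02 in WT and -1.40 in *Cd300a-/-*, and the former was -0.49 without centring. *Ftl1*, the ferritin light chain, was the most abundant gene of the group, with a mean of 16017 TPM, and is uncertain because the genome holds near-identical copies. *Nqo1*, often used as a readout of NRF2, did not pass the TPM limit and had 81 and 47 counts (5.94 and 3.85 TPM) in WT and *Cd300a-/-* SiglecF hi, and 58 and 110 counts (7.27 and 12.5 TPM) in SiglecF lo neutrophils. *Hmox1* and *Nqo1* were singled out after their values were seen.

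In the thioredoxin and glutaredoxin group, *Txnip*, an inhibitor of thioredoxin, was the most abundant gene, with a mean of 1452 TPM and ratios of 0.30 and 0.11 between genotypes. *Glrx5*, a mitochondrial glutaredoxin, was at 12.6 TPM in WT against 4.74 TPM in *Cd300a-/-* SiglecF lo neutrophils (-1.25, -1.55 to -0.95). Its ratio in SiglecF hi neutrophils was 0.10, and between the subsets in *Cd300a-/-* it was 1.45 after centring. *Glrx*, the cytosolic glutaredoxin, was lower in SiglecF hi in both genotypes, at -1.93 and -2.15. The methionine sulfoxide reductases *Msrb1* and *Msra*, which repair oxidized methionine, were lower there as well, while *Msrb2*, of the same group, was higher in SiglecF hi in *Cd300a-/-* (0.85, 0.42 to 1.29) and within the limit in WT (-0.25). *Msrb1* was at 1175 and 1191 TPM in WT and *Cd300a-/-* SiglecF hi, and at 3070.1 and 2581 TPM in SiglecF lo neutrophils (-1.91 and -1.73), and *Msra* had ratios of -1.78 and -2.16. *Msrb2* had 128 and 166 counts in WT and *Cd300a-/-* SiglecF hi, and 61 and 39 counts in SiglecF lo neutrophils, where its genotype ratio was -0.69 (-1.20 to -0.19). In the same order it was at 12.2, 17.7, 9.93 and 5.75 TPM. *Msrb2* thus passed the mean TPM limit through the SiglecF hi libraries, the subset in which it was called higher.

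Between the subsets, 6 of the 51 further genes were higher (against 19.3% of all genes) and 15 lower (against 20.9%) in SiglecF hi in WT after centring, and 7 were higher (against 21.2%) and 18 lower (against 23.6%) in *Cd300a-/-*. Without centring the numbers were 24 higher and 9 lower in WT, and 24 higher and 13 lower in *Cd300a-/-*. For the 10 genes, the split without centring was 3 higher and 1 lower in WT, and 5 higher and 2 lower in *Cd300a-/-*. Of the 10, *Nfe2l2*, *Sod2*, *Gpx1*, *Txnrd1*, *Srxn1* and *Gclm* turned from a negative to a positive ratio in WT, and *Sod2*, *Gpx1* and *Txnrd1* in *Cd300a-/-*. Over all 6523 genes, 3386 were then higher and 487 lower in WT, and 3692 higher and 520 lower in *Cd300a-/-*. With DESeq2 size factors, the split of the 10 genes was 2 higher and 2 lower in WT (17.8% and 23.9% of all genes), and 1 higher and 3 lower in *Cd300a-/-* (20.6% and 25.6%). After centring, in both genotypes, 4 of the antioxidant genes (*Maff*, *Prdx1*, *Gsto1* and *Abcc1*) were higher past the limit in SiglecF hi neutrophils (against 9.2% of all genes) and 15 were lower (against 13.9%). The 15 were *Mafk*, *Prdx5*, *Txn1*, *Glrx*, *Gsr*, *Slc7a11*, *Mgst1*, *Mgst2*, *Osgin1*, *G6pdx*, *Pgd*, *Taldo1*, *Tkt*, *Msra* and *Msrb1*. *Abcc1* was at 19.4 and 15.9 TPM in WT and *Cd300a-/-* SiglecF hi, against 7.69 and 5.75 TPM in SiglecF lo neutrophils. It thus passed the mean TPM limit only through the subset in which it was called higher, and *Mgst2* only through *Cd300a-/-* SiglecF lo neutrophils. Without centring, *Mafk* lost its call in both genotypes, and *Slc7a11* (-0.26), *Mgst2* (-0.22), *Osgin1* (-0.49) and *Tkt* (-0.20) lost it in WT.

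To describe which genes moved alike, the distance between log2(TPM + 1) profiles over the 4 libraries was calculated after the mean of each gene was subtracted. The smallest distance among the 10 genes was that of *Nfe2l2* and *Sod2* (0.22), and *Gpx1* and *Txnrd1* were also nearest to *Sod2* (0.26 and 0.42). *Srxn1* and *Gclm* were nearest to each other (0.43), as were *Sod1* and *Prdx1* (0.49). *Cat* and *Prdx5* had no close neighbour, at 0.81 from *Prdx1* and 1.02 from *Gclm*. *Gclm* and *Srxn1* were thus nearer to each other than either was to *Nfe2l2* or *Prdx1*. Of all genes compared, *Marchf2* (distance 0.066), *Plekhf2* (0.067) and *Sugt1* (0.068) were nearest to *Nfe2l2*. *Plekhf2*, for example, was at 39.6 TPM in WT against 48.5 TPM in *Cd300a-/-* for SiglecF hi neutrophils, and it was at 39.6 against 31.6 TPM for SiglecF lo neutrophils.

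Promoter windows of the 10 genes were searched because *Gclm* and *Srxn1* moved together and *Prdx1*, another known NRF2 target, did not move with them. RefSeq windows of 300 bases, 250 before the gene's start and the rest after it, were found for all 10 genes (12 windows, on GRCm38.p6) and read on both strands. The ARE core TGACNNNGC was present in at least 1 window of *Nfe2l2*, *Sod1*, *Prdx1*, *Txnrd1*, *Srxn1* and *Gclm*, that is 6 of 10 genes, and in 14.0% of all 27025 genes. These letters were not in the windows of *Sod2*, *Cat*, *Gpx1* and *Prdx5*. A form with G at the fourth base, TGAGNNNGC, was added after the windows were read, and it was present in *Prdx1* and *Srxn1* and in 19.8% of all genes. The AP-1 element TGANTCA was present in *Prdx1* and *Srxn1*, and in 8.97% of all genes. AP-1 and ARE letters can overlap. The 3 windows that bear on the comparison are printed up to the first start that RefSeq or GENCODE M21 gives, 5′ to 3′ on the plus strand, with matches to any of these motifs in capitals.
Gclm, chr3:122245307-122245556: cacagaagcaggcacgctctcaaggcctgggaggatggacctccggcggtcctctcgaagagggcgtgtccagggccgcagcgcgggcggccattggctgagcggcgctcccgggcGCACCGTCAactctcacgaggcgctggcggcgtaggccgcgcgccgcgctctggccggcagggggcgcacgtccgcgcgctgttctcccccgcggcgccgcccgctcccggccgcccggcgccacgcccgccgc
Srxn1, chr2:152105274-152105515: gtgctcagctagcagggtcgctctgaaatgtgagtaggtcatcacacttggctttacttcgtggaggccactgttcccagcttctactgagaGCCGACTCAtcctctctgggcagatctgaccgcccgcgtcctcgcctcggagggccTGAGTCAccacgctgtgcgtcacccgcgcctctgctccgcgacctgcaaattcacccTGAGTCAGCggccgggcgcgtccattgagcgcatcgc
Prdx1, chr4:116685349-116685543: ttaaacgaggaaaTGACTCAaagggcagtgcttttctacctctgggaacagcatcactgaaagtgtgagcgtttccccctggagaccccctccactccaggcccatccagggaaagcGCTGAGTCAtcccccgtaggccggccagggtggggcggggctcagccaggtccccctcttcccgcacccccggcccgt
In *Gclm* the ARE core lies on the minus strand at position -134 from the start (GCACCGTCA as printed). In *Prdx1* it lies at -133 (GCTGAGTCA) and overlaps an AP-1 element at -131, a further AP-1 element lies at -237, and a G form lies after the start, at 16 (GCGTTCTCA), outside the bases printed. In *Srxn1* the G form lies at -158 and at -45, the latter overlapping an AP-1 element (TGAGTCAGC), another AP-1 element lies at -102, and the ARE core lies after the start, at 29 (GCTAGGTCA), outside the bases printed. A match describes letters and was not tested as a binding site, and windows farther from the start were not searched.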

How the data were processed

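RNA was extracted with ISOGEN, selected for poly(A), prepared with the NEBNext Ultra II kit and sequenced paired-end on a NextSeq. For each gene the authors deposited a raw count, of reads or of pairs (the sources used here do not say which). They calculated expression in CLC Genomics Workbench. The authors deposited RPKM and TPM, which are normalized for length and depth, and a signal headed CPM, which is the counts scaled to library size and to 1 more factor per library. TPM and counts were used here. The submitters' processing notes name GRCm39, while aligner settings, annotation release and strand setting are not given in the sources used here.

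The 10 genes and the lists of 60 further genes and of markers were chosen with earlier results of these data known. Named were the 10 genes, per comparison and group the highest and the lowest gene past the limit, the most abundant gene of each group, and genes past the limit in the same direction in both subsets or both genotypes. Other genes, among them *Keap1*, *Cul3*, *Sod3*, *Slc3a2*, *Mgst3*, *Gstm1* and *Gstp1*, were named outside these rules. Alternatives were a pseudocount of 0.1 TPM, a mean TPM over 1, a TPM over 10 in both libraries compared, a log2 limit of 1, the other choice of centring, TMM scaling (edgeR 4.0.16) and DESeq2 1.42.0 size factors (with 10 counts added) in R 4.3.3. The calculations were tested on simulated data. Python 3.11.15, numpy 2.4.6 and pandas 2.3.3 were used. Published comparisons, qPCR and flow cytometry were not analysed here.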

Additional observations from a re-analysis of the deposited data

Results flagged for a closer look

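*Nfe2l2*, *Cat* and *Sod2* had genotype ratios of opposite sign in the subsets, each with a counting interval that did not include 0 in TPM. For *Sod2* in SiglecF hi neutrophils the interval did include 0 after centring (0.05, -0.01 to 0.11). The ratio of *Nfe2l2* in SiglecF lo minus that in SiglecF hi neutrophils was -0.62 (95% counting interval -0.68 to -0.56), from 0.25 in SiglecF hi to -0.37 in SiglecF lo. The same difference was 0.87 for *Cat* (0.63 to 1.10) and -0.25 for *Sod2* (-0.36 to -0.14). With 1 library per group these differences were not tested against variation between mice. In *Cd300a-/-* SiglecF lo neutrophils, the library with the higher *Cat* and the lower *Nfe2l2* and *Sod2*, the summed endothelial markers were at 156 TPM against 515 TPM in WT, and the neutrophil markers at 179907 against 143206 TPM. The part of these markers in the differences was not tested.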

How the results depend on the processing

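For the 10 genes, 160 ratios were recomputed under a pseudocount of 0.1, the other centring, TMM scaling and DESeq2 size factors. Of these, 127 stayed within their counting interval, 33 moved beyond it, and no called ratio changed sign. Among ratios within the limit, 6 of the 10 genes in WT and 3 in *Cd300a-/-* changed sign between subsets without centring, as did *Sod2* with TMM scaling and *Nfe2l2* with DESeq2 size factors in *Cd300a-/-*. Of 13 calls, 3 were lost in 1 of these 4 settings each, as given beside *Sod1* and *Srxn1*, and 10 were gained over the 4. Beyond these, with a mean TPM over 1 *Nfe2l2* gained a call between subsets in WT (-0.54) and *Sod1* lost its call in *Cd300a-/-*. Between genotypes in SiglecF hi neutrophils, the number of the 10 genes past the limit was 1 in place of 0 after centring, with TMM scaling and with DESeq2 size factors, each time *Prdx1*. With a log2 limit of 1 the numbers past it were 1 of the 10 genes and 5 of the 51 further genes between genotypes in SiglecF lo, and 2 of the 51 in SiglecF hi neutrophils. These 2 were *Gpx7* and *Mgst2*, which each reached a mean TPM over 10 only through 1 library. Under the log2 limit of 1, between subsets, 2 of the 10 and 10 of the 51 were past it in WT, and 2 of the 10 and 16 of the 51 in *Cd300a-/-*. Of all genes, 5.15% were then higher and 7.88% lower in WT, and 6.81% higher and 9.67% lower in *Cd300a-/-*. Without centring 33 of the 51 passed the limit between subsets in WT, where 51.9% of all genes were then higher and 7.47% lower. A mean TPM over 1 kept 11472 genes, of which 806 (7.03%) were higher and 910 (7.93%) lower in SiglecF hi and 2370 (20.7%) higher and 2808 (24.5%) lower in SiglecF lo neutrophils between genotypes. A log2 limit of 1 on the 6523 genes gave 24 (0.368%) and 22 (0.337%), and 219 (3.36%) and 392 (6.01%). The cause of these shifts was not tested, except that a higher limit keeps fewer genes by construction. No paired analysis was possible because each group has 1 library, and no library could be left out. Among the 61 genes over the TPM limit, the lowest counts were 7 for *Mgst2* and 16 for *Gstk1*, and these genes had the widest intervals.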

Other observations

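Among genes of the antioxidant systems below the TPM limit, *Txnrd2*, the mitochondrial thioredoxin reductase, had 256 and 342 counts in WT and *Cd300a-/-* SiglecF hi neutrophils, and 56 and 24 counts in WT and *Cd300a-/-* SiglecF lo neutrophils. *Msrb3*, a methionine sulfoxide reductase, had 105 and 76 counts in SiglecF hi, and 247 and 68 counts in SiglecF lo neutrophils. *Gss*, which completes glutathione synthesis, had 179 and 109 counts in SiglecF hi, and 155 and 219 counts in SiglecF lo neutrophils. These genes were singled out after their values were seen, and their log2((TPM + 1) ratio) between genotypes was 0.52 and -0.85 for *Txnrd2*, -0.23 and -1.71 for *Msrb3*, and -0.48 and 0.33 for *Gss*, in SiglecF hi and SiglecF lo neutrophils.

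The proportions of the glutamate-cysteine ligase subunits differed between the libraries. *Gclm* held 55.9% (95% counting interval 53.1 to 58.8%) of the summed TPM of *Gclc* and *Gclm* in WT and 47.2% (44.6 to 49.7%) in *Cd300a-/-* SiglecF hi neutrophils. In SiglecF lo neutrophils it held 65.5% (61.2 to 69.7%) in WT and 68.9% (66.2 to 71.7%) in *Cd300a-/-*, where the intervals overlapped although both genes were higher past the limit in *Cd300a-/-*.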
